A study of Mus musculus with 24 samples.

Results

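Mouse embryonic stem cells that lack both Smad2 and Smad3 were compared with cells that lack Smad2 alone, after 4 days of differentiation as embryoid bodies. The contrast asks what differs across all genes when Smad3 is lost on top of Smad2. It rests on the 4 RNA libraries whose labels give those genotypes at day 4, of 10 RNA libraries and 24 samples in the whole series; the 14 chromatin immunoprecipitation samples were not used here. All cells derive from the mouse embryonic stem cell line E14Tg2a.IV, and embryoid bodies, which are floating aggregates that differentiate without patterning from outside, were grown in media without LIF, the cytokine that holds mouse stem cells undifferentiated. The double knockout (Smad2/3DKO, 2 libraries) is compared with the Smad2 knockout (Smad2-/-, 2 libraries). The Smad3 knockout (Smad3-/-, 2 libraries) and wild type (WT, 2 libraries), both at day 4, enter the fit and serve as another pair of groups that differ in Smad3. Both libraries of a knockout carry the same number in their library names, so each knockout appears to be 1 line, and the loss of Smad3 cannot be told apart from other differences between 2 lines. Nothing in the labels ties the libraries of a group to separate cultures. The p-values therefore measure the spread between libraries, which may be technical.

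SMAD2 and SMAD3 are the transcription factors that the receptors for Nodal, Activin and TGF-beta phosphorylate; both enter the nucleus with SMAD4 and bind DNA together with partners such as FOXH1. In the mouse epiblast this signal maintains the Nodal gene itself, switches on its own antagonists Lefty1 and Lefty2, and is needed for the primitive streak, from which mesoderm and definitive endoderm form. The proteins share part of their roles: embryos without Smad2 fail around gastrulation, while mice without Smad3 are born.

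The 2 double knockout libraries held 43410154 and 38596824 counts and the 2 Smad2 knockout libraries 40252240 and 53672980, within a range of 35733249 to 53672980 over all 10 libraries. Of 53379 genes, 19470 passed a filter on low counts and were tested with edgeR's quasi-likelihood test with Benjamini-Hochberg adjustment; a gene is called where the adjusted p is under 0.05. Levels are given as CPM, counts relative to a library's scaled total. CPM is not per length, so levels are compared between groups and not between genes. A log2 difference is double knockout minus Smad2 knockout. The test called 7715 genes (39.6% of those tested), of which 3998 were higher (20.5%) and 3717 lower (19.1%) in the double knockout, and the median over all tested genes was -0.018. Scaled by plain library totals instead, the split was 5479 higher and 2266 lower, with the median of all genes shifted to 0.277. On TPM, which is per length, it was 7071 higher and 657 lower of 14328 genes, with the median shifted to 0.65. Calls on TPM test against 0 and so carry that shift. Medians of lists on TPM are therefore given relative to the median of all genes. With 1 library left out fewer genes were called over all genes, so counts of list members under such removals are to be read against that drop. The number of calls was 3733 without double knockout replicate 1 and 3693 without its replicate 2, against 5330 and 6270 without Smad2 knockout replicate 1 and replicate 2.

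The differences followed transcript length. The median log2 difference was -1.17 over the 647 genes with transcripts of up to 500 bases and 0.99 over the 943 genes with transcripts over 6000 bases, and the medians increased from bin to bin over all 8 bins. Across the 19470 genes, which are not independent replicates, Spearman's rho between length and difference was 0.435. The 80 ribosomal protein genes, which are short and encode the protein part of the ribosome, took 6.93% and 6.31% of counts in the double knockout, against 14.2% and 13.5% in the Smad2 knockout and 5.86% and 7.28% in WT. Of these 80 genes 72 were called lower and 0 higher (median -1.37). Without Smad2 knockout replicate 1 or 2 the number lower was 57 and 63, and without double knockout replicate 1 or 2 it was 46 and 38. After an offset for length and GC content 24 of the 80 were called lower and 1 higher (median -0.38), while over all genes that fit called 36.5%, 19.7% higher and 16.8% lower. Of the 7715 calls 4686 kept their direction and call with the offset, and 21 were called the opposite way. For the genes named below, the offset and the other scalings are given where they end a call, and the cause of the length trend was not tested.

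**Figure D1:**
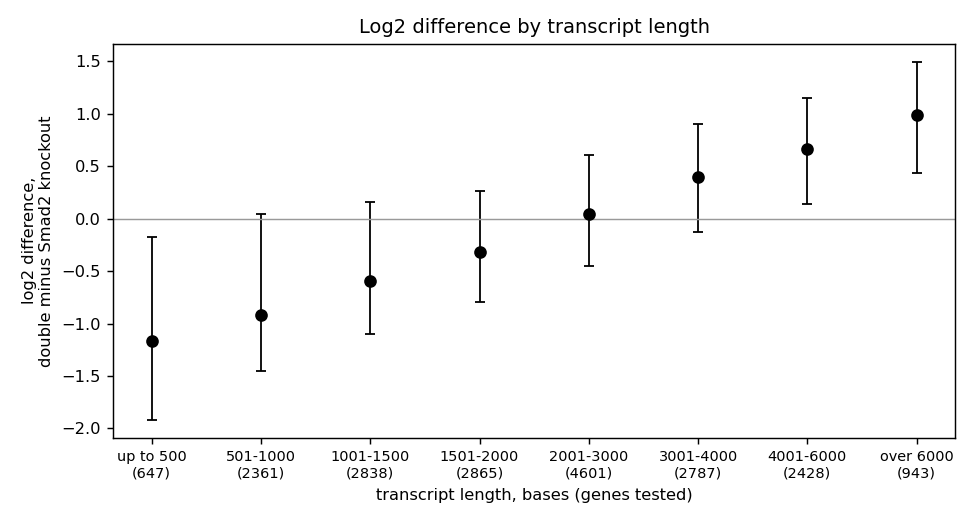
Median log2 difference, double knockout minus Smad2 knockout (vertical axis), in 8 bins of transcript length in bases (horizontal axis). Points are medians over the genes of a bin and bars run between the quartiles; the shortest bin lies at -1.17 and the longest at 0.99.

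The RNA of neither targeted gene was called different between the 2 groups. Smad3 (chromosome 9, 63646767 to 63757994, mm10) had 28 and 25.7 CPM in the double knockout, against 30.8 and 31 CPM in the Smad2 knockout and 42 and 44.9 CPM in WT (log2 difference -0.20, SE 0.16, adjusted p = 0.338). The 4 knockout values lie below both WT values; both double knockout values lie below both Smad2 knockout values, by little, and the difference missed the threshold. Relative to the median of all genes the Smad3 difference was -0.19, against -0.18 on plain library totals and -0.04 on TPM. With the length and GC offset Smad3 was called lower (-0.81, adjusted p = 0.00222). Smad2 (chromosome 18, 76241580 to 76310963) had 22.2 and 22.7 CPM in the double knockout, against 19.2 and 20.4 CPM in the Smad2 knockout and 49.9 and 38.3 CPM in WT (log2 difference 0.18, SE 0.18, adjusted p = 0.45); both double knockout values lie just above both Smad2 knockout values, and both knockouts kept a part of the WT level. The labels do not describe the deleted stretch of either gene, so these gene totals do not check the Smad3 label. Smad4, the partner shared by the TGF-beta and BMP branches, had 154 and 140.5 CPM in the double knockout, against 72.2 and 56.7 CPM in the Smad2 knockout and 119 and 107 CPM in WT, and was called higher (log2 difference 1.19, SE 0.17, adjusted p = 0.00117). The Smad4 values of the 2 knockouts do not overlap, and the WT values lie between them.

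Genes that respond to Nodal and Activin were lower in the double knockout. Of 17 listed targets 10 were called lower and 0 higher, with a median log2 difference of -1.81. Without double knockout replicate 1 or 2 the number lower was 4 and 4; without Smad2 knockout replicate 1 or 2 it was 6 (median -0.63) and 11. On TPM 3 were called lower and 2 higher, and the median of the list was -0.67 relative to that of all genes. The summed level of the list was 553 and 520 CPM in the double knockout, against 1020 and 764 CPM in the Smad2 knockout and 2020 and 1950 CPM in WT. Because these are bulk libraries, fewer cells of a type and less RNA per cell cannot be told apart, here and in the results that follow.

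Both secreted antagonists of the pathway and its ligand fell. Lefty1 (chromosome 1, 180935022 to 180938400), a secreted inhibitor of Nodal, had 0.81 and 0.209 CPM in the double knockout, against 20.9 and 20.2 CPM in the Smad2 knockout and 37.1 and 103 CPM in WT. Both double knockout values were under 1 CPM while both Smad2 knockout values were near 20, a 39.4-fold lower level in the double knockout (log2 difference -5.30, SE 0.63, adjusted p = 0.000659). Lefty2, the second inhibitor of this kind, had 2.22 and 0.116 CPM in the double knockout, against 30.4 and 19.5 CPM in the Smad2 knockout and 80.3 and 96.9 CPM in WT (log2 difference -4.39, SE 0.77, adjusted p = 0.00276), again without overlap. Nodal, the ligand, had 11.9 and 8.63 CPM in the double knockout, against 50.6 and 25.3 CPM in the Smad2 knockout and 42.1 and 85.3 CPM in WT (log2 difference -1.89, SE 0.39, adjusted p = 0.00577). In Nodal the 2 Smad2 knockout libraries differed by more than the double knockout libraries, with replicate 1 the higher. Pmepa1, which encodes a membrane protein that restrains TGF-beta signalling, had 5.65 and 5.71 CPM in the double knockout, against 28.7 and 11 CPM in the Smad2 knockout (log2 difference -1.80, SE 0.40, adjusted p = 0.00796). Tdgf1, which encodes the Nodal co-receptor Cripto, had 124 and 148 CPM in the double knockout, against 255 and 210.0 CPM in the Smad2 knockout (log2 difference -0.77, SE 0.19, adjusted p = 0.012); on TPM its difference was 0.17, or -0.48 relative to the median of all genes. The call of Nodal was lost without double knockout replicate 2 (adjusted p = 0.0576), and on TPM (0.0963). The call of Pmepa1 was lost without double knockout replicate 1 (adjusted p = 0.0578) or 2 (0.0572), and on TPM (0.897). The call of Tdgf1 was lost without double knockout replicate 1 (adjusted p = 0.104) and without Smad2 knockout replicate 1 (0.0594), and on plain totals (0.0802).

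Other targets and feedback genes of the pathway were not called. Smad7, an inhibitory SMAD that TGF-beta induces, had 23 and 23.3 CPM in the double knockout, against 31.8 and 21 CPM in the Smad2 knockout (log2 difference -0.19, SE 0.22, adjusted p = 0.518), and the group values overlap. Skil, a co-repressor of SMAD proteins, had 104 and 92.5 CPM in the double knockout, against 86.1 and 90.5 CPM in the Smad2 knockout (log2 difference 0.16, SE 0.21, adjusted p = 0.574); with the length and GC offset its difference was -0.88 (adjusted p = 0.000987). Cer1, a secreted antagonist of Nodal and BMP made by endoderm, had at most 2 counts in each of the 4 libraries, so its fitted difference is not read as a fold or a direction. Nanog, a pluripotency factor and target of the pathway, had 152 and 127 CPM in the double knockout, against 199 and 186 CPM in the Smad2 knockout (log2 difference -0.46, SE 0.17, adjusted p = 0.0507).

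**Figure D2:**
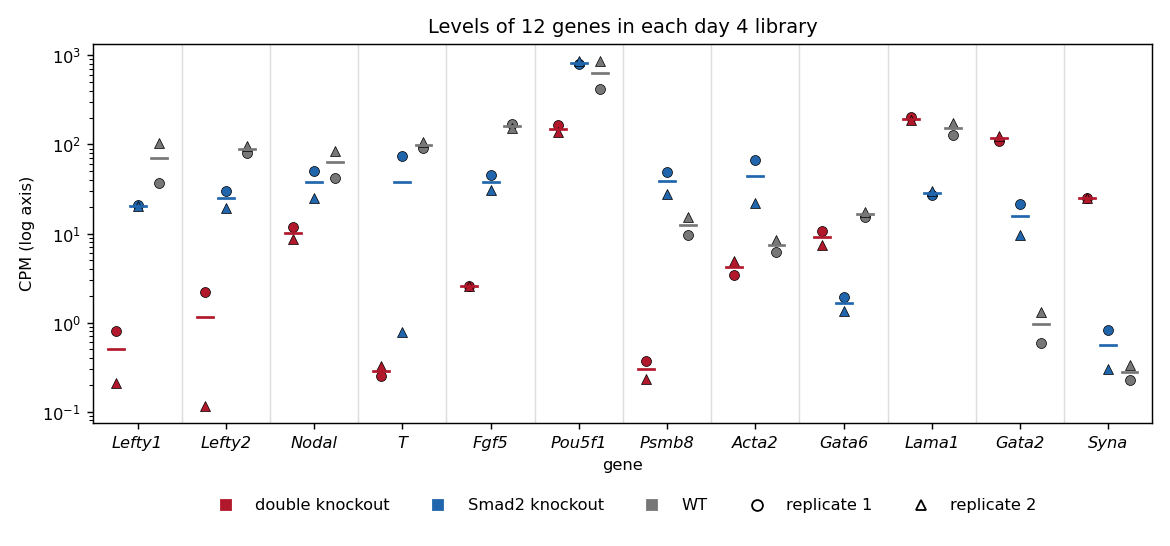
Level of 12 genes in CPM on a log axis (vertical) in the double knockout, the Smad2 knockout and WT at day 4 (horizontal, left to right). Circles are replicate 1, triangles replicate 2 and bars the mean of 2 libraries. T separates the 2 Smad2 knockout libraries (74.3 and 0.79 CPM), while Fgf5, Psmb8, Lama1 and Syna separate the double knockout from the Smad2 knockout.

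Primitive streak genes differed mainly through 1 library. Of 17 streak genes 13 were called lower and 0 higher (median -4.23), but their summed level was 24.8 and 21.8 CPM in the double knockout, against 284 and 27.5 CPM in the Smad2 knockout and 436 and 539 CPM in WT. Replicate 1 of the Smad2 knockout thus stands apart, while its replicate 2 lies near the double knockout. Without that replicate 3 of 17 were called lower (T, Fgf8 and Eomes; median -0.8), without replicate 2 of the Smad2 knockout 14 were, and without either double knockout library 0 were. T (chromosome 17, 8434423 to 8442496), the T-box factor brachyury of streak and mesoderm, had 0.249 and 0.325 CPM in the double knockout, against 74.3 and 0.789 CPM in the Smad2 knockout and 90.2 and 106 CPM in WT (log2 difference -7.02, SE 1.65, adjusted p = 0.00971). Eomes, a T-box factor of the streak and definitive endoderm, had 6.39 and 5.29 CPM in the double knockout, against 49.3 and 10.9 CPM in the Smad2 knockout and 218 and 215 CPM in WT (log2 difference -2.36, SE 0.54, adjusted p = 0.00858). Fgf8, a growth factor of the streak, had 0.208 and 0.186 CPM in the double knockout, against 40.4 and 2.07 CPM in the Smad2 knockout (log2 difference -6.73, SE 1.43, adjusted p = 0.00626). For all 3 genes both double knockout values lie below both Smad2 knockout values. Mixl1, a homeobox gene of the streak, had 0.104 and 0.0464 CPM in the double knockout, against 22.6 and 0.0853 CPM in the Smad2 knockout (log2 difference -7.15, SE 1.89, adjusted p = 0.016). Its Smad2 knockout replicate 2 lies at the double knockout level, and the Mixl1 difference without replicate 1 was -0.16. The call of T was lost without double knockout replicate 1 (adjusted p = 0.076) or 2 (0.071), and on TPM (0.112). The call of Eomes was lost without double knockout replicate 1 (adjusted p = 0.0526) or 2 (0.0695), and on TPM (0.172). The call of Fgf8 was lost without double knockout replicate 1 (adjusted p = 0.0552) or 2 (0.056). The call of Mixl1 was lost without double knockout replicate 1 (adjusted p = 0.0928) or 2 (0.104) and without Smad2 knockout replicate 1 (0.907), and on TPM (0.12).

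Genes of the primed epiblast, the pluripotent tissue from which the streak arises, were lower in both double knockout libraries. Of 14 listed genes 9 were called lower and 0 higher (median -1.28). The number was 7 and 5 without double knockout replicate 1 or 2, and 8 and 7 without Smad2 knockout replicate 1 or 2. On TPM 4 were lower and 3 higher, with a relative median of -0.85. Fgf5 (chromosome 5, 98254184 to 98277030), a growth factor and standard marker of this state, had 2.55 and 2.58 CPM in the double knockout, against 45.6 and 30.4 CPM in the Smad2 knockout and 170.4 and 152 CPM in WT. The double knockout values lie close together and far below both others, a 14.8-fold lower level (log2 difference -3.89, SE 0.23, adjusted p = 7.58e-05). Pim2, a serine/threonine kinase, had 35.1 and 38.2 CPM in the double knockout, against 344 and 296 CPM in the Smad2 knockout (log2 difference -3.13, SE 0.19, adjusted p = 8.37e-05). Fgf15, a growth factor of the early embryo, had 1.04 and 0.812 CPM in the double knockout, against 10.1 and 7.3 CPM in the Smad2 knockout (log2 difference -3.23, SE 0.26, adjusted p = 0.000214). Sall2, a zinc finger factor, had 14.6 and 14.5 CPM in the double knockout, against 48.4 and 48.4 CPM in the Smad2 knockout (log2 difference -1.73, SE 0.16, adjusted p = 0.000313). In these 4 genes both double knockout values lay below both Smad2 knockout values. All but Fgf5, a panel gene, were picked from the called members by adjusted p. That choice favours narrow spreads, so their spread is no separate support. Dnmt3b, a de novo DNA methyltransferase, had 205 and 205 CPM in the double knockout, against 276 and 352 CPM in the Smad2 knockout (log2 difference -0.61, SE 0.18, adjusted p = 0.0241); on TPM it lay 0.45 higher in the double knockout, or -0.20 relative to the median of all genes. Otx2, a homeobox factor of epiblast and forebrain, had 62.7 and 59.4 CPM in the double knockout, against 58.5 and 81.6 CPM in the Smad2 knockout (log2 difference -0.20, SE 0.19, adjusted p = 0.434), with overlapping values. The call of Dnmt3b was lost without double knockout replicate 1 (adjusted p = 0.119) or 2 (0.124) and without Smad2 knockout replicate 2 (0.106), and on plain totals (0.203).

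Of 12 core pluripotency genes 6 were called lower and 0 higher (median -0.66), with 1 higher and 1 lower on TPM (relative median -0.46). The number lower was 4 and 2 without double knockout replicate 1 or 2, and 5 and 3 without Smad2 knockout replicate 1 or 2. Pou5f1 (chromosome 17, 35506018 to 35510772), which encodes the POU factor OCT4, had 165 and 137 CPM in the double knockout, against 790.0 and 856 CPM in the Smad2 knockout and 424 and 859.7 CPM in WT. It was 5.46-fold lower in the double knockout (log2 difference -2.45, SE 0.31, adjusted p = 0.000801), with both Smad2 knockout values near the higher WT value. Sox2, its partner, had 142 and 96.7 CPM in the double knockout, against 156 and 206 CPM in the Smad2 knockout, and missed the threshold (log2 difference -0.60, SE 0.22, adjusted p = 0.0514). Of 20 genes of the naive state, an earlier form of pluripotency, 5 were called lower and 1 higher (median -0.57; 2 lower and 6 higher on TPM, with a relative median of -0.33). Dppa5a, an RNA-binding protein of stem cells, had 402 and 251 CPM in the double knockout, against 909.8 and 1650.0 CPM in the Smad2 knockout (log2 difference -1.97, SE 0.36, adjusted p = 0.00317). Tfcp2l1, a transcription factor of naive cells, had 156 and 129 CPM in the double knockout, against 37.5 and 88.5 CPM in the Smad2 knockout, and was called higher (log2 difference 1.18, SE 0.34, adjusted p = 0.0233). Without double knockout replicate 1 or 2 the naive list had 2 lower with 0 higher and 1 lower with 0 higher. Without Smad2 knockout replicate 1 or 2 it had 9 lower with 0 higher and 3 lower with 3 higher, with a median of 0.03 in the last case. The call of Tfcp2l1 was lost without double knockout replicate 1 (adjusted p = 0.119) or 2 (0.0649) and without Smad2 knockout replicate 1 (0.0694), and with the length and GC offset (0.72).

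Targets of FGF and WNT signals were also lower, the WNT targets less so without Smad2 knockout replicate 1. Of 15 FGF-response genes 9 were called lower and 0 higher (median -0.95, and a relative median of -0.70 on TPM), and the number was 6 and 4 without double knockout replicate 1 or 2, and 9 and 6 without Smad2 knockout replicate 1 or 2. Dusp6, a phosphatase that shuts off ERK and is induced by it, had 22 and 16.8 CPM in the double knockout, against 58.5 and 46.8 CPM in the Smad2 knockout (log2 difference -1.44, SE 0.20, adjusted p = 0.00104). Spry2, a feedback inhibitor of receptor tyrosine kinases, had 21.4 and 16.3 CPM in the double knockout, against 40.9 and 31.8 CPM in the Smad2 knockout (log2 difference -0.95, SE 0.20, adjusted p = 0.00573). Of 17 WNT-response genes 8 were called lower and 0 higher (median -1.41). On TPM 0 were called lower and 2 higher, with a relative median of -0.78. The median was -1.24 and -1.53 without double knockout replicate 1 or 2, and -0.28 and -2.11 without Smad2 knockout replicate 1 or 2. The list includes T and Rspo3, which were high in Smad2 knockout replicate 1. Ccnd1, which encodes cyclin D1, had 25.2 and 22.7 CPM in the double knockout, against 53 and 43.4 CPM in the Smad2 knockout (log2 difference -1.01, SE 0.17, adjusted p = 0.00242). Lef1, a nuclear effector of the WNT pathway, had 4.57 and 4.06 CPM in the double knockout, against 18.1 and 8.19 CPM in the Smad2 knockout (log2 difference -1.61, SE 0.33, adjusted p = 0.0052). In Ccnd1 both Smad2 knockout libraries lie about as far above the double knockout, while in Lef1 replicate 1 lies farther. Rspo3, a secreted enhancer of WNT signals, had 0.083 and 0.0464 CPM in the double knockout, against 11 and 0.171 CPM in the Smad2 knockout (log2 difference -6.34, SE 1.57, adjusted p = 0.0123). The call of Dusp6 was lost on TPM (adjusted p = 0.115). The call of Spry2 was lost without double knockout replicate 2 (adjusted p = 0.0629), and on TPM (0.871). The call of Ccnd1 was lost on TPM (adjusted p = 0.731). The call of Lef1 was lost on TPM (adjusted p = 0.101). The call of Rspo3 was lost without double knockout replicate 1 (adjusted p = 0.078) or 2 (0.0878) and without Smad2 knockout replicate 1 (0.16), and on TPM (0.125).

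Genes that TGF-beta induces in fibroblasts and smooth muscle were lower as well. Of 16 listed genes 9 were called lower and 1 higher (median -1.32; 5 lower and 2 higher on TPM, with a relative median of -0.90). Of them 6 and 5 were lower without double knockout replicate 1 or 2, and 6 and 7 without Smad2 knockout replicate 1 or 2. Acta2, the smooth muscle actin, had 3.45 and 4.92 CPM in the double knockout, against 66.6 and 22 CPM in the Smad2 knockout and 6.2 and 8.56 CPM in WT (log2 difference -3.40, SE 0.47, adjusted p = 0.00113). Tagln, an actin-binding protein of smooth muscle, had 12.6 and 18.7 CPM in the double knockout, against 149 and 50.04 CPM in the Smad2 knockout and 28.2 and 38.5 CPM in WT (log2 difference -2.67, SE 0.45, adjusted p = 0.00232). Both genes lie below the WT values in the double knockout and above them in the Smad2 knockout. Ccn2, a matricellular protein also called connective tissue growth factor, had 39.9 and 32.2 CPM in the double knockout, against 109.5 and 121 CPM in the Smad2 knockout (log2 difference -1.68, SE 0.17, adjusted p = 0.000383). Col1a2, a chain of type I collagen, had 4.15 and 5.36 CPM in the double knockout, against 23.6 and 22.1 CPM in the Smad2 knockout (log2 difference -2.26, SE 0.24, adjusted p = 0.000438). Tgfbi, a secreted matrix protein, had 4.03 and 4.15 CPM in the double knockout, against 34.2 and 22.9 CPM in the Smad2 knockout (log2 difference -2.80, SE 0.29, adjusted p = 0.000402). Itgav, an integrin subunit that activates latent TGF-beta, was called higher (80.3 and 80.1 CPM in the double knockout, against 40.2 and 31.4 CPM in the Smad2 knockout; log2 difference 1.16, SE 0.24, adjusted p = 0.00592). Markers of fibroblasts and stroma overlapped with this list: 7 of 11 were called lower and 2 higher (median -2.16), and their summed level was 66.2 and 68.0 CPM in the double knockout, against 280 and 138 CPM in the Smad2 knockout and 56.8 and 80.5 CPM in WT. Without double knockout replicate 1 or 2 the number of stromal markers lower was 4 and 5, and without Smad2 knockout replicate 1 or 2 it was 6 and 5. Their part in the TGF-beta values was not tested. The call of Itgav was lost on TPM (adjusted p = 0.755) and with the length and GC offset (0.129). On TPM its difference was -0.43 relative to the median of all genes.

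Receptors and SMAD proteins differed with the scaling. Of 25 pathway components 13 were called higher and 1 lower (median 0.64), 18 higher and 0 lower on TPM (relative median 0.61), but 5 higher and 6 lower with the length and GC offset (median 0.11). The number higher was 6 and 7 without double knockout replicate 1 or 2, and 8 and 9 without Smad2 knockout replicate 1 or 2. Bmpr1a, a type I BMP receptor, had 170.3 and 195 CPM in the double knockout, against 78.3 and 68.3 CPM in the Smad2 knockout (log2 difference 1.32, SE 0.23, adjusted p = 0.00277, and 0.43 with the offset). Tgfbr1, the type I TGF-beta receptor, had 59.4 and 52.8 CPM in the double knockout, against 27.6 and 21.9 CPM in the Smad2 knockout (log2 difference 1.18, SE 0.25, adjusted p = 0.00673, and 0.30 with the offset). Smad9, a SMAD of the BMP branch, had 2.12 and 1.53 CPM in the double knockout, against 0.45 and 0.277 CPM in the Smad2 knockout (log2 difference 2.33, SE 0.42, adjusted p = 0.00322). Tgif1, a co-repressor that binds SMAD2 and SMAD3, was the 1 member called lower, with 92.6 and 85 CPM in the double knockout, against 179 and 125 CPM in the Smad2 knockout (log2 difference -0.78, SE 0.19, adjusted p = 0.0124), and lay 0.05 higher on TPM, or -0.60 relative to the median of all genes. The list of 17 targets of BMP signals had 3 genes called higher and 2 called lower, and 0 lower without either double knockout library or without Smad2 knockout replicate 1. The call of Tgfbr1 was lost with the length and GC offset (adjusted p = 0.239). The call of Tgif1 was lost without double knockout replicate 1 (adjusted p = 0.061) or 2 (0.0952) and without Smad2 knockout replicate 1 (0.0662), and on plain totals (0.0927) and with the length and GC offset (0.137).

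Trophoblast genes, which mark the lineage that builds the placenta, were the list with the highest share of higher calls among the cell type lists. Of 20 listed genes 17 were called higher and 1 lower (median 1.61), and the offset and TPM kept that direction, with 18 and 16 higher. The number higher was 14 and 10 without double knockout replicate 1 or 2, and 15 and 11 without Smad2 knockout replicate 1 or 2. Their summed level was 7770 and 12400 CPM in the double knockout, against 2530 and 1890 CPM in the Smad2 knockout and 703 and 568 CPM in WT. Most of it came from the retrotransposon-derived imprinted gene Peg10, which had 6598 and 11120.0 CPM in the double knockout, against 1887 and 1455 CPM in the Smad2 knockout (log2 difference 2.41, SE 0.29, adjusted p = 0.000647). Syna (chromosome 5, 134558146 to 134560171), a syncytin that fuses trophoblast cells, had 25.2 and 24.8 CPM in the double knockout, against 0.821 and 0.299 CPM in the Smad2 knockout and 0.229 and 0.333 CPM in WT. Both double knockout values are near 25 CPM and all 4 others under 1 (log2 difference 5.5, SE 0.47, adjusted p = 0.000251). Dlx3, a homeobox factor needed for the placenta, had 59.6 and 63.5 CPM in the double knockout, against 15 and 11.7 CPM in the Smad2 knockout (log2 difference 2.21, SE 0.26, adjusted p = 0.00062). Plet1, a surface protein of early trophoblast, had 55.5 and 51.8 CPM in the double knockout, against 18.4 and 11.7 CPM in the Smad2 knockout (log2 difference 1.84, SE 0.23, adjusted p = 0.000737). Gata2 had 109 and 125 CPM in the double knockout, against 21.6 and 9.6 CPM in the Smad2 knockout and 0.595 and 1.33 CPM in WT (log2 difference 2.91, SE 0.42, adjusted p = 0.00134). Gata3 had 34 and 26.1 CPM in the double knockout, against 9.72 and 4.4 CPM in the Smad2 knockout (log2 difference 2.09, SE 0.35, adjusted p = 0.00237). Both encode GATA factors of trophoblast, and in both the double knockout lies above the Smad2 knockout without overlap. Cdx2, a homeobox factor of trophoblast stem cells and of posterior mesoderm, went the other way, with 1.91 and 1.67 CPM in the double knockout, against 31.4 and 4.44 CPM in the Smad2 knockout (log2 difference -3.32, SE 0.74, adjusted p = 0.00788). Hand1, a factor of trophoblast giant cells and of extraembryonic mesoderm, had 60.6 and 62.6 CPM in the double knockout, against 53.5 and 39.8 CPM in the Smad2 knockout, and was not called (log2 difference 0.40, SE 0.35, adjusted p = 0.385), though it was with the offset (0.97, adjusted p = 0.00238). Krt8, a keratin of simple epithelia, had 947 and 1163 CPM in the double knockout, against 1483 and 959.8 CPM in the Smad2 knockout (log2 difference -0.21, SE 0.37, adjusted p = 0.67), with overlapping values. The call of Cdx2 was lost without double knockout replicate 1 (adjusted p = 0.0573) or 2 (0.0652), and on TPM (0.0755).

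Genes of extraembryonic endoderm, the lineage of the yolk sac, were also higher. Of 22 listed genes 13 were called higher and 0 lower (median 1.33), with 11 and 13 without double knockout replicate 1 or 2, 12 and 13 without Smad2 knockout replicate 1 or 2, and 16 on TPM. The summed level was 2130 and 1790 CPM in the double knockout, against 1000 and 901 CPM in the Smad2 knockout and 2390 and 2720 CPM in WT, so the double knockout lay nearer to WT. Lama1, the laminin chain of the yolk sac basement membrane, had 201 and 186 CPM in the double knockout, against 27 and 30.3 CPM in the Smad2 knockout and 127 and 176 CPM in WT (log2 difference 2.76, SE 0.19, adjusted p = 0.000128). Gata6, a GATA factor that starts this lineage, had 10.7 and 7.45 CPM in the double knockout, against 1.93 and 1.34 CPM in the Smad2 knockout and 15.4 and 17.4 CPM in WT (log2 difference 2.48, SE 0.28, adjusted p = 0.000564). Neither gene overlaps between the knockouts, and the double knockout lies above both WT values for Lama1 and below both for Gata6. Hnf4a, a nuclear receptor of visceral endoderm, had 13.2 and 7.21 CPM in the double knockout, against 1.4 and 2.3 CPM in the Smad2 knockout (log2 difference 2.46, SE 0.34, adjusted p = 0.00116). Gata4, the partner of Gata6, had 16.5 and 13.8 CPM in the double knockout, against 4.87 and 2.58 CPM in the Smad2 knockout (log2 difference 2.02, SE 0.31, adjusted p = 0.00151). Pdgfra, a receptor of primitive endoderm and of mesoderm, had 24.9 and 19.1 CPM in the double knockout, against 4.69 and 2.39 CPM in the Smad2 knockout (log2 difference 2.64, SE 0.37, adjusted p = 0.00119). These 3 genes were picked from the members called higher, and their values do not overlap between the groups. Afp, the fetal serum protein of visceral endoderm, had 1.29 and 3.67 CPM in the double knockout, against 3.07 and 1.6 CPM in the Smad2 knockout and 46.5 and 38.4 CPM in WT, and was not called (log2 difference 0.09, SE 0.46, adjusted p = 0.895).

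Markers of definitive endoderm, the embryonic gut lineage, split. Of 15 listed genes 6 were called higher and 3 lower (median 0.51), and Gata4, Gata6 and Hnf4a among the higher ones mark extraembryonic endoderm too. The split was 5 and 2 without double knockout replicate 1, 6 and 2 without its replicate 2, 7 and 2 without Smad2 knockout replicate 1, and 6 and 3 without its replicate 2. Cxcr4, a chemokine receptor of definitive endoderm and other tissues, had 3.7 and 6.42 CPM in the double knockout, against 1.22 and 1.05 CPM in the Smad2 knockout (log2 difference 2.16, SE 0.37, adjusted p = 0.00247). Trh, which encodes thyrotropin-releasing hormone and marks early endoderm in embryoid bodies, had 29.3 and 21.8 CPM in the double knockout, against 160.3 and 196 CPM in the Smad2 knockout (log2 difference -2.80, SE 0.25, adjusted p = 0.000277). Sox17, an endoderm factor, had 4.26 and 3.85 CPM in the double knockout, against 2.41 and 1.09 CPM in the Smad2 knockout (log2 difference 1.22, SE 0.48, adjusted p = 0.0714). Foxa2, a forkhead factor of endoderm and node, had 2.74 and 0.997 CPM in the double knockout, against 2.2 and 0.469 CPM in the Smad2 knockout (log2 difference 0.51, SE 0.66, adjusted p = 0.557). Neither was called. Gsc, a homeobox gene of the organizer, had 0.187 and 0.116 CPM in the double knockout, against 2.01 and 0.832 CPM in the Smad2 knockout (log2 difference -3.19, SE 0.87, adjusted p = 0.0183). It was the 1 member called lower of 10 tested genes of the organizer and axial mesendoderm, where 0 were higher. The call of Gsc was lost without double knockout replicate 1 (adjusted p = 0.0786) or 2 (0.111) and without Smad2 knockout replicate 1 (0.109), and on TPM (0.268).

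Other germ layers gave mixed lists. Of 17 mesoderm genes 3 were called higher and 6 lower (median -0.4, and a relative median of -0.17 on TPM). Of 16 hematoendothelial genes 5 were called higher and 4 lower (median -0.28, and a relative median of 0.44 on TPM), and their summed level was 218 and 211 CPM in the double knockout, against 60.9 and 60.8 CPM in the Smad2 knockout and 43.0 and 45.6 CPM in WT. Gata2, which is on the trophoblast list too, gave 109 and 125 CPM of that sum in the double knockout, against 21.6 and 9.6 CPM in the Smad2 knockout. Without Smad2 knockout replicate 1 the mesoderm list had 2 higher and 3 lower (median 0.31), and the hematoendothelial list 4 higher and 2 lower. Without double knockout replicate 1 or 2 the mesoderm list had 3 and 2 lower, and the hematoendothelial list 1 and 2 lower. Cdh5, the cadherin of endothelial cells, had 42.8 and 34.3 CPM in the double knockout, against 1.99 and 0.128 CPM in the Smad2 knockout (log2 difference 5.22, SE 0.92, adjusted p = 0.00274). Kdr, a VEGF receptor, had 5.52 and 2.48 CPM in the double knockout, against 0.927 and 0.576 CPM in the Smad2 knockout (log2 difference 2.42, SE 0.41, adjusted p = 0.00236). Runx1, a factor of blood formation, had 1.16 and 1.42 CPM in the double knockout, against 4.92 and 2.82 CPM in the Smad2 knockout (log2 difference -1.58, SE 0.36, adjusted p = 0.00868). Of 20 neuroectoderm genes 3 were called higher and 5 lower (median -0.26), with 1 higher and 3 lower without either double knockout library; only 5 of them were tested on TPM. Sox3, a SOX factor of the neural plate, had 0.54 and 0.325 CPM in the double knockout, against 6.73 and 5.46 CPM in the Smad2 knockout (log2 difference -3.80, SE 0.53, adjusted p = 0.00114). Sox1, a marker of early neural cells, had 0.955 and 0.626 CPM in the double knockout, against 2.46 and 1.45 CPM in the Smad2 knockout (log2 difference -1.30, SE 0.42, adjusted p = 0.0355). Both neural factors were below 7 CPM in all 4 libraries. Of 23 tested HOX genes, which pattern the body axis, 6 were called lower and 0 higher. Without Smad2 knockout replicate 1 the split was 3 higher and 1 lower, without its replicate 2 it was 0 higher and 13 lower, and without double knockout replicate 1 or 2 it was 1 lower each. The call of Runx1 was lost without double knockout replicate 1 (adjusted p = 0.0699). The call of Sox1 was lost without double knockout replicate 1 (adjusted p = 0.0729) or 2 (0.197) and without Smad2 knockout replicate 1 (0.17), and on plain totals (0.0889) and with these groups fitted alone (0.0595) and in DESeq2 (0.0559).

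Genes of the extracellular matrix and its receptors were mixed. Of 29 collagens, laminins and integrins 9 were called higher and 5 lower (median 0.5); with the offset 8 were higher and 11 lower (median -0.12). The number lower was 2 without either double knockout library and 1 without Smad2 knockout replicate 1. The higher ones included Lama1 and Col4a1, which encode basement membrane chains, and Col4a1 had 515 and 386 CPM in the double knockout, against 89.1 and 82 CPM in the Smad2 knockout (log2 difference 2.40, SE 0.38, adjusted p = 0.0019). The lower ones included Col1a2, a chain of fibrillar collagen. Of the 20 genes of DNA replication 8 were called lower and 1 higher (median -0.51), with 3 lower without either double knockout library and 5 without Smad2 knockout replicate 2. On TPM 1 was lower and 4 were higher, with a relative median of -0.29.

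Imprinted genes, which are expressed from 1 parental allele, were higher on balance. Of 29 matched genes 16 were called higher and 5 lower (median 0.98). Without double knockout replicate 1 or 2 the number higher was 10 and 10, and without Smad2 knockout replicate 1 or 2 it was 13 and 10; the number lower was 3 without either double knockout library or without Smad2 knockout replicate 1. H19, a long non-coding RNA that is abundant in extraembryonic tissue, had 6579 and 8104 CPM in the double knockout, against 2213 and 1782 CPM in the Smad2 knockout and 72.5 and 94.7 CPM in WT (log2 difference 1.88, SE 0.21, adjusted p = 0.000567). Igf2, the growth factor from the same imprinted cluster, had 1051 and 1230.0 CPM in the double knockout, against 818 and 538 CPM in the Smad2 knockout (log2 difference 0.75, SE 0.21, adjusted p = 0.0196). On TPM the Igf2 difference was -0.12 relative to the median of all genes. Peg3, a zinc finger gene, had 611 and 918 CPM in the double knockout, against 144 and 71.2 CPM in the Smad2 knockout (log2 difference 2.83, SE 0.34, adjusted p = 0.000656). Dio3, which inactivates thyroid hormone, had 18.5 and 26.1 CPM in the double knockout, against 2.81 and 1.28 CPM in the Smad2 knockout (log2 difference 3.45, SE 0.40, adjusted p = 0.000614). Going the other way, Nnat, a small membrane protein of neural and endocrine cells, had 4.42 and 9.02 CPM in the double knockout, against 107 and 46.7 CPM in the Smad2 knockout (log2 difference -3.52, SE 0.46, adjusted p = 0.000899). Snrpn, a splicing protein of the Prader-Willi region, had 104.9 and 112 CPM in the double knockout, against 263 and 235 CPM in the Smad2 knockout (log2 difference -1.20, SE 0.15, adjusted p = 0.000785). Nnat and Snrpn, picked from the members called lower, fell in both double knockout libraries without overlap. In the IGF axis 6 of 16 genes were called higher and 5 lower (median 0.17, and -0.82 with the length and GC offset). The split was 3 higher and 3 lower without double knockout replicate 1, 4 and 2 without its replicate 2, 4 and 4 without Smad2 knockout replicate 1, and 4 and 3 without its replicate 2. Pappa2 (chromosome 1, 158711727 to 158980490), a protease of the placenta that cleaves IGF-binding proteins, had 12.7 and 12.7 CPM in the double knockout, against 0.0794 and 0 CPM in the Smad2 knockout; the few counts of the Smad2 knockout give a ratio of counts of 358 with a counting interval from 122 to 1740 (adjusted p = 0.000277). Igfbp3, an IGF-binding protein, fell, with 14.3 and 18.1 CPM in the double knockout, against 154 and 44.6 CPM in the Smad2 knockout (log2 difference -2.62, SE 0.46, adjusted p = 0.00279). The call of Igf2 was lost without double knockout replicate 1 (adjusted p = 0.0575) or 2 (0.129) and without Smad2 knockout replicate 2 (0.0804), and on TPM (0.112). The call of Snrpn was lost on TPM (adjusted p = 0.199).

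**Figure D3:**
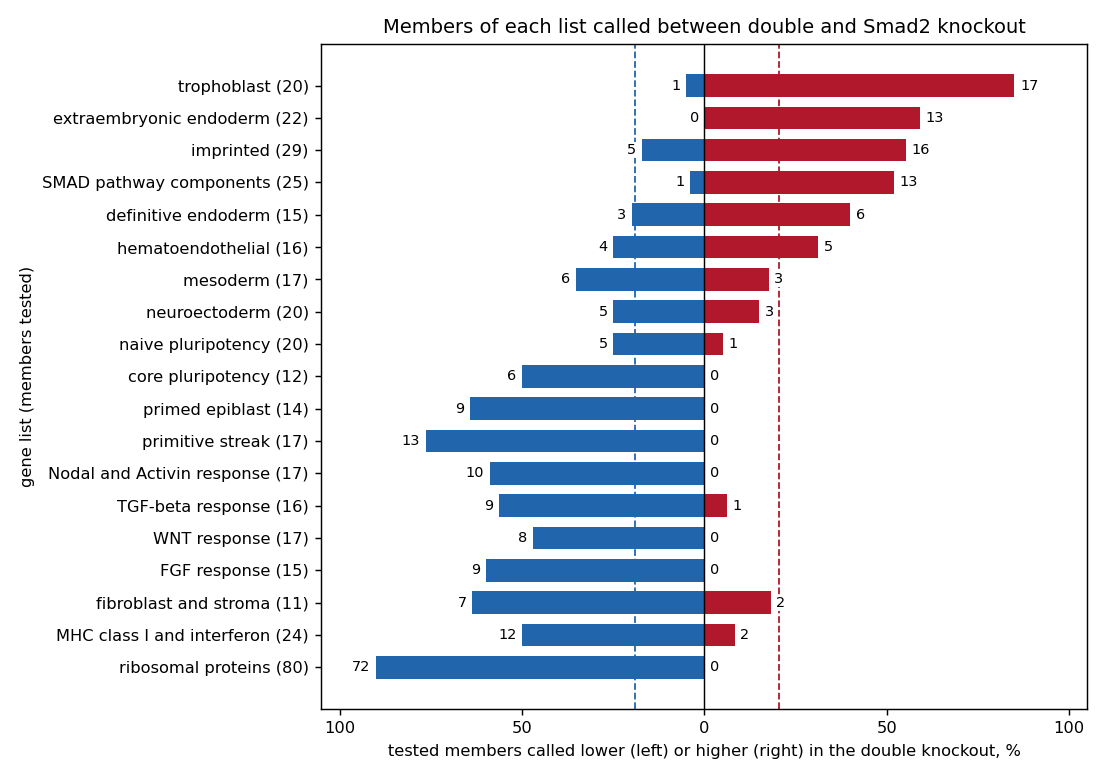
Percent of the tested members of each gene list called lower (bars to the left) and higher (bars to the right) in the double knockout against the Smad2 knockout, with the number of genes beside each bar. Dashed lines mark the share over all tested genes, 20.5% higher and 19.1% lower.

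Genes of MHC class I antigen presentation and the interferon response were lower in the double knockout. Interferons act through STAT and IRF factors, which bind short elements in promoters of genes such as Isg15, a ubiquitin-like protein, and Bst2, a membrane protein that tethers budding virus. The 250 bases upstream of the annotated start of these 2 members are shown because they hold such elements (RefSeq, GRCm38.p6, minus strand in both, 5′ to 3′); capitals mark matches to GAAANNGAAA or TTCNNNGAA on either strand, overlapping matches joined. The Isg15 window lies at chr4:156200819-156201068 and the Bst2 window at chr8:71537473-71537722.
Isg15: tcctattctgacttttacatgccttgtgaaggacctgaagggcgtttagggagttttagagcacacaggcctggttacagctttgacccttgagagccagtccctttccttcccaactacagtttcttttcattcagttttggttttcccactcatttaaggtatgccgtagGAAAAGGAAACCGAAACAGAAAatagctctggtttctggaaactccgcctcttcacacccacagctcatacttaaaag
Bst2: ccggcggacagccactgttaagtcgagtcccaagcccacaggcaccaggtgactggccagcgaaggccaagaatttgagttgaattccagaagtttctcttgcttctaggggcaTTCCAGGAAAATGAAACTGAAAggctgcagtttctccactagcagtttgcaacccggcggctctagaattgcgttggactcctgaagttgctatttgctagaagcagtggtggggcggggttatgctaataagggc
In the Isg15 window 3 overlapping matches to GAAANNGAAA begin 78, 72 and 66 bases before the start. In the Bst2 window 2 matches to it begin 130 and 124 bases before the start and overlap 1 match to TTCNNNGAA. Of 32851 promoter windows in the reference 2.98% hold GAAANNGAAA and 7.02% hold TTCNNNGAA. Of the 12 listed genes called lower 11 had a window, of which 4 held GAAANNGAAA (Bst2, Ifit1, Ifit3 and Isg15) and 3 held TTCNNNGAA (Bst2, Irf1 and Psmb8). Of the 10 not called 8 had a window, of which 4 and 1 held them, and neither of the 2 called higher held a match. A match is a run of letters and no measured binding site.

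Of 24 listed genes 12 were called lower and 2 higher (median -1.29). The number lower was 10 and 11 without double knockout replicate 1 or 2, 11 and 12 without Smad2 knockout replicate 1 or 2, 12 with the length and GC offset, and 8 with 5 higher on TPM. The summed level was 394 and 378 CPM in the double knockout, against 887 and 744 CPM in the Smad2 knockout and 482 and 720 CPM in WT. Psmb8 (chromosome 17, 34197721 to 34201454), a catalytic subunit of the immunoproteasome, had 0.374 and 0.232 CPM in the double knockout, against 49.6 and 27.8 CPM in the Smad2 knockout and 9.67 and 15.5 CPM in WT (log2 difference -6.97, SE 0.44, adjusted p = 8.37e-05). Both double knockout values are below 1 CPM and every other day 4 value shown is above 9. Psmb10, another immunoproteasome subunit, had 2.8 and 2.95 CPM in the double knockout, against 59.8 and 45.2 CPM in the Smad2 knockout (log2 difference -4.19, SE 0.52, adjusted p = 0.00075). Irf1, a transcription factor of these genes, had 13.9 and 12.2 CPM in the double knockout, against 87.9 and 57.2 CPM in the Smad2 knockout (log2 difference -2.47, SE 0.23, adjusted p = 0.0003). Tap2, which carries peptides to MHC molecules, had 1.87 and 1.3 CPM in the double knockout, against 18.1 and 12.4 CPM in the Smad2 knockout (log2 difference -3.26, SE 0.50, adjusted p = 0.00162). Isg15 had 0.166 and 0.533 CPM in the double knockout, against 3.39 and 1.9 CPM in the Smad2 knockout (log2 difference -2.92, SE 0.62, adjusted p = 0.00646). Bst2 had 59.9 and 42.2 CPM in the double knockout, against 159 and 210.4 CPM in the Smad2 knockout (log2 difference -1.85, SE 0.37, adjusted p = 0.00459). These 6 genes were picked from the members called lower, so their lack of overlap between the groups is no separate support. Their neighbours in the pathway did not all follow: Tap1, the partner of Tap2, had 17.4 and 18.3 CPM in the double knockout, against 23.4 and 21.2 CPM in the Smad2 knockout (log2 difference -0.32, SE 0.27, adjusted p = 0.36). B2m, the light chain of MHC class I, had 49.5 and 41.8 CPM in the double knockout, against 67 and 33.4 CPM in the Smad2 knockout (log2 difference -0.13, SE 0.30, adjusted p = 0.746). Ifnar1, a chain of the interferon receptor, and Irf9, a DNA-binding part of the factor it activates, were the 2 called higher (log2 difference 0.73, adjusted p = 0.00512 and 0.85, adjusted p = 0.00878). The call of Isg15 was lost without double knockout replicate 1 (adjusted p = 0.0514). The call of Bst2 was lost without double knockout replicate 2 (adjusted p = 0.0501). The call of Ifnar1 was lost without double knockout replicate 2 (adjusted p = 0.0501), and with the length and GC offset (0.197). The call of Irf9 was lost without double knockout replicate 2 (adjusted p = 0.0621).

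The Xlr genes, an X-linked family of nuclear proteins related to a protein of the synaptonemal complex, were higher in the double knockout. This family was listed after its values had been seen. Of its 15 genes 10 were tested and all 10 were called higher (median 6.18), with 9 under each removal of 1 library and 10 with the length and GC offset. The summed level of the 10 tested genes was 324 and 329 CPM in the double knockout, against 7.86 and 5.29 CPM in the Smad2 knockout and 12.8 and 9.56 CPM in WT. Xlr5b had 19.5 and 20.1 CPM in the double knockout, against 0.159 and 0.107 CPM in the Smad2 knockout and 0.48 and 0.499 CPM in WT (log2 difference 7.21, SE 0.32, adjusted p = 3.24e-05). Xlr3a had 120.3 and 113 CPM in the double knockout, against 3.55 and 2.58 CPM in the Smad2 knockout (log2 difference 5.25, SE 0.25, adjusted p = 3.45e-05). Xlr3b had 76.2 and 85.8 CPM in the double knockout, against 2.28 and 1.39 CPM in the Smad2 knockout (log2 difference 5.47, SE 0.30, adjusted p = 4.55e-05). The 2 libraries of each genotype lie close together in these genes, with no overlap between genotypes. The family was picked for its values, and the largest rises had to lack overlap, so this is no separate support. Members that are low elsewhere can also pass the filter on low counts through the double knockout alone. Xlr4a had 25.2 and 27.1 CPM in the double knockout, against 0.477 and 0.256 CPM in the Smad2 knockout (log2 difference 6.17). Xlr4b had 19.7 and 18.5 CPM in the double knockout, against 0.318 and 0.341 CPM in the Smad2 knockout (log2 difference 5.84). Xlr4c had 10.1 and 9.02 CPM in the double knockout, against 0.159 and 0.0853 CPM in the Smad2 knockout (log2 difference 6.28).

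The promoter windows of Xlr4a, Xlr4b and Xlr4c are shown because they are near copies of one another upstream of the start. They are the 250 bases upstream of each start (RefSeq, GRCm38.p6): chrX:73082508-73082757 on the minus strand for Xlr4a, chrX:73214083-73214332 on the plus strand for Xlr4b and chrX:73243131-73243380 on the minus strand for Xlr4c. Capitals mark a run of 60 bases present in all 3 windows.
Xlr4a: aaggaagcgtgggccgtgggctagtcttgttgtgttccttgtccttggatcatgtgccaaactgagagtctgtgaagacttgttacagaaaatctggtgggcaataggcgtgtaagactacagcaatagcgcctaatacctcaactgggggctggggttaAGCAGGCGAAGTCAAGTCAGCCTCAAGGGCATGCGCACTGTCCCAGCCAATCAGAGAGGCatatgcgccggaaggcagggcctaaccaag
Xlr4b: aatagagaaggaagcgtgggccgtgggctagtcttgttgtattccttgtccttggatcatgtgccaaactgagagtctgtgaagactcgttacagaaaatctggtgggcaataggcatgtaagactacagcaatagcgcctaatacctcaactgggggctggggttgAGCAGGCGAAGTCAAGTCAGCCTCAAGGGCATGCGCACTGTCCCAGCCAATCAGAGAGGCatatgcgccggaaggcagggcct
Xlr4c: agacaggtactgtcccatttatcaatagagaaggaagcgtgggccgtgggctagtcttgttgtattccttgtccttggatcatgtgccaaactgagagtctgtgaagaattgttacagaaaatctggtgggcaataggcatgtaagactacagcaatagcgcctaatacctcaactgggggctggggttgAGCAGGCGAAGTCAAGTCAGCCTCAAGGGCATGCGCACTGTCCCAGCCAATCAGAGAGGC
The likeness of their transcripts was not measured here. Where copies share transcript sequence, their reads can be divided only by estimate, so the value of a single Xlr gene is uncertain. The annotated Xlr5a gene spans several other Xlr genes, and its value (20.6 and 22.4 CPM in the double knockout, against 0.265 and 0.0213 CPM in the Smad2 knockout; log2 difference 7.29, SE 0.73, adjusted p = 0.000368) is uncertain for that reason too.

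Of the 15 largest rises among called genes with at least 5 CPM in the higher group, 7 were Xlr genes. Syna and Pappa2 were among the others. Olr1, a scavenger receptor for oxidised lipoprotein, had 17.9 and 18.5 CPM in the double knockout, against 0.556 and 0.064 CPM in the Smad2 knockout (log2 difference 5.92, SE 0.76, adjusted p = 0.00111). Pcdh12, a protocadherin of endothelium and of trophoblast, had 13.5 and 8.19 CPM in the double knockout, against 0.371 and 0.0853 CPM in the Smad2 knockout (log2 difference 5.60, SE 0.60, adjusted p = 0.000465). Gm28036, which overlaps Nfs1, Cpne1 and Rbm12 on the same strand, had 54.2 and 46.1 CPM in the double knockout and no count in the Smad2 knockout (94.8 and 58.5 CPM in WT), which with 3 counts set as the floor of the group is at least 1420-fold higher (adjusted p = 8.37e-05). The largest falls included Psmb8, Lefty1, T, Fgf8 and Rspo3. Among them Gm26718 had no count in the double knockout, against 38.9 and 19.9 CPM in the Smad2 knockout, at least 864-fold lower by the same floor (adjusted p = 0.0176), but 1 of its 2 WT libraries also had no count. Gm43118 was likewise without counts in the double knockout, against 23.7 and 22.1 CPM in the Smad2 knockout, at least 695-fold lower (adjusted p = 0.00654). Reads of overlapping loci are divided between them by estimate. Adnp, which encodes a homeobox protein, had 27 and 26.2 CPM in the double knockout, against 0.291 and 1.17 CPM in the Smad2 knockout (log2 difference 5.14, SE 0.50, adjusted p = 0.000337). Gm20716, which overlaps it, had 199.7 and 207 CPM in the double knockout, against 125 and 154 CPM in the Smad2 knockout (log2 difference 0.55, SE 0.20, adjusted p = 0.0534). Their sum was 226.7 and 233.4 CPM in the double knockout, against 125.2 and 154.8 CPM in the Smad2 knockout, a ratio of 1.64, against 35.2 for Adnp alone. The call of Gm26718 was lost without double knockout replicate 1 (adjusted p = 0.0834) or 2 (0.0823) and without Smad2 knockout replicate 1 (0.0597).

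Genes on chromosome 18 differed on either side of Smad2. Of the 48 tested genes that lie beyond the start of Smad2 towards the end of the chromosome, 24 were called lower and 4 higher (median -1.0), and of the 394 genes before it 38 were called lower and 169 higher (median 0.56). Before Smad2 the number lower was 9 and 10 without double knockout replicate 1 or 2 and 18 and 29 without Smad2 knockout replicate 1 or 2, while 113 to 141 were higher. The number lower beyond Smad2 was 15 and 14 without double knockout replicate 1 or 2, 20 and 18 without Smad2 knockout replicate 1 or 2, and 28 with the offset; on TPM it was 8 with 11 higher, with a relative median of -0.56, and the relative median before Smad2 was 0.60. Against WT, the median log2 ratio of the genes beyond Smad2 was -0.96 in the double knockout and -0.23 in the Smad2 knockout, and that of the genes before it was 0.27 in the double knockout and -0.24 in the Smad2 knockout. Smad4, which was called higher, lies before Smad2 (chromosome 18, 73639009 to 73703780). Y-linked genes set both knockouts apart from WT. The sum of the 6 tested was 2.68 and 0.0232 CPM in the double knockout, against 0 and 0.213 CPM in the Smad2 knockout. In WT it was 153 and 93.9 CPM, and 0 of the 6 were called between the 2 knockouts. The number of gene copies was not measured, and its part in these values was not tested.

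**Figure D4:**
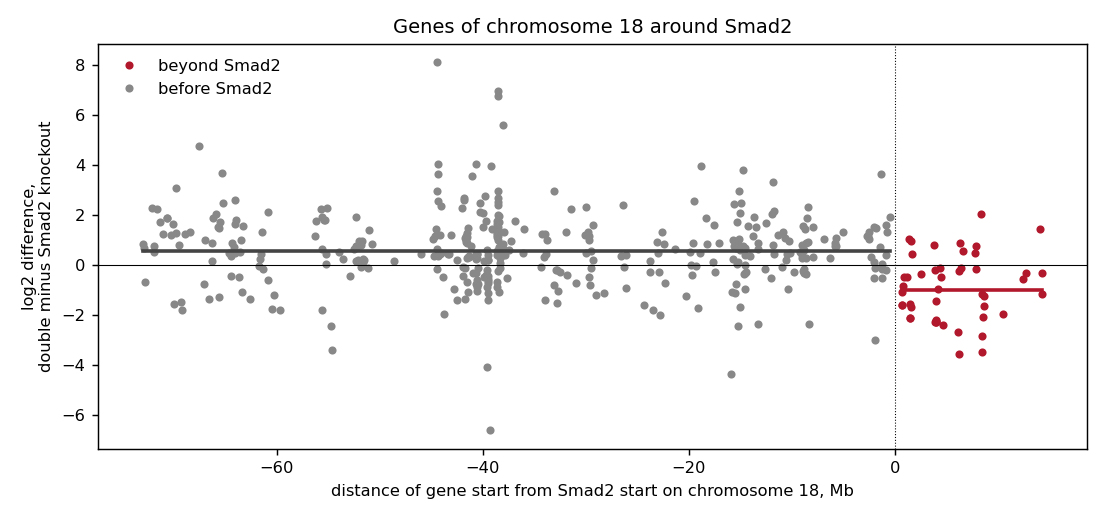
Log2 difference, double knockout minus Smad2 knockout (vertical axis), of each tested gene of chromosome 18 against the distance of its start from the start of Smad2 in megabases (horizontal axis). Lines are medians on either side, 0.56 before Smad2 and -1.0 beyond it.

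The contrast of the Smad3 knockout with WT gives the difference in Smad3 where Smad2 is present, and it shares no library with the contrast above. It called 108 genes (0.555% of those tested), 84 higher (0.431%) and 24 lower (0.123%), against 7715 where Smad2 is absent. The difference of the 2 differences was tested in the same fit and called 3673 genes (18.9%), 2209 higher (11.3%) and 1464 lower (7.52%). That number was 870 and 786 without double knockout replicate 1 or 2, and 2006 and 3505 without Smad2 knockout replicate 1 or 2. Across the 19470 genes, which are not independent, Pearson's r between the 2 sets of log2 differences was 0.141, as a description. Of a panel of 30 pathway and lineage genes 5 were called higher and 13 lower in the double knockout against the Smad2 knockout, and in 11 the difference of differences was called. Of those 11 genes 3 were called without double knockout replicate 1 and 3 without its replicate 2 (Gata6, Fgf5 and H19 in both cases), and 9 and 8 without Smad2 knockout replicate 1 or 2.

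Gata6 had 9.59 and 10.1 CPM in the Smad3 knockout, against 15.4 and 17.4 CPM in WT, a log2 difference of -0.73; the difference of differences was 3.21 (adjusted p = 0.00335). Fgf5 had 73.1 and 74.1 CPM in the Smad3 knockout, against 170.4 and 152 CPM in WT (-1.13), and its log2 difference lay farther below 0 where Smad2 was absent (difference of differences -2.76, adjusted p = 0.00243). Pou5f1 had 408 and 510.2 CPM in the Smad3 knockout, against 424 and 859.7 CPM in WT (-0.48; difference of differences -1.96, adjusted p = 0.0166). Lefty1 had 7.95 and 13 CPM in the Smad3 knockout, against 37.1 and 103 CPM in WT (-2.74; difference of differences -2.56, adjusted p = 0.0475). In Fgf5, Pou5f1 and Lefty1 both log2 differences are negative. Hand1 had 9.73 and 14 CPM in the Smad3 knockout, against 0.617 and 1.69 CPM in WT, a log2 difference of 3.36 (adjusted p = 0.0174), while it was not called in the double knockout against the Smad2 knockout (difference of differences -2.96, adjusted p = 0.00981). For Nodal the difference of differences was -0.84 and for T it was -6.33, and neither was called (adjusted p = 0.286 and 0.0517). Without double knockout replicate 1 or 2 the adjusted p of the difference of differences was 0.0529 and 0.155 for Lefty1, 0.0575 and 0.0788 for Pou5f1, and 0.0501 and 0.0504 for Hand1; without Smad2 knockout replicate 1 or 2 that of Lefty1 was 0.108 and 0.0862.

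**Figure D5:**
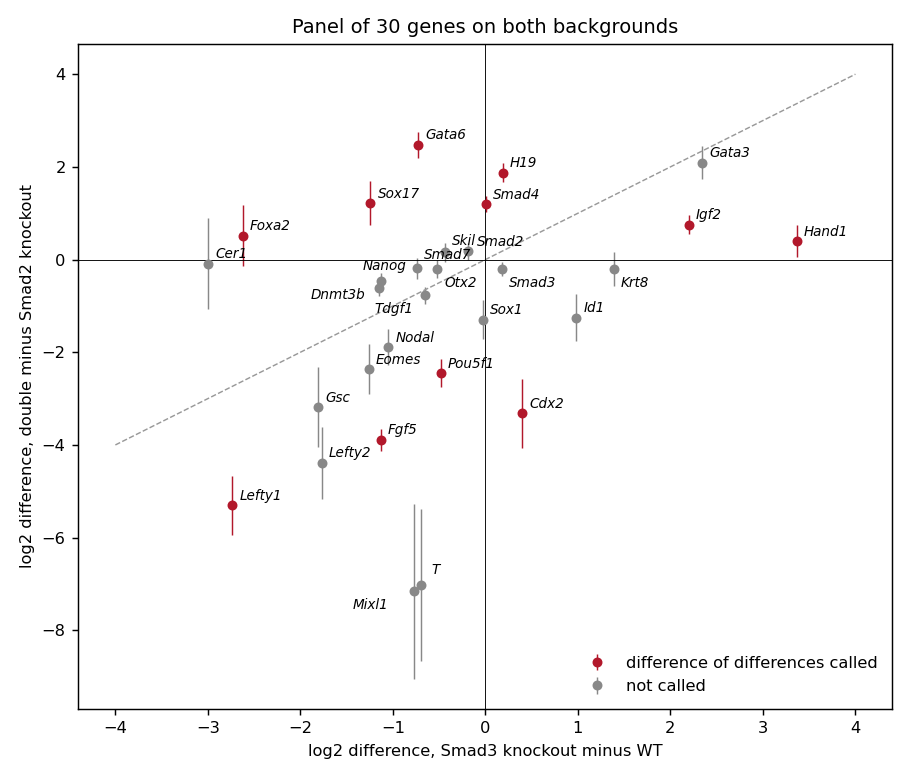
Log2 difference of 30 genes between the double knockout and the Smad2 knockout (vertical axis, bars are 1 SE) against the log2 difference between the Smad3 knockout and WT (horizontal axis). Red points mark the 11 genes whose difference of differences was called, and the dashed line marks equal differences.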

How the data were processed

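RNA was sequenced from embryoid bodies of 4 genotypes at day 4 and from undifferentiated WT cells (day 0), with 2 libraries in each of the 5 groups. The values deposited by the authors are, per the file headers, RSEM expected counts and TPM per gene. Tools named in the submitters' processing notes, with build mm10, are STAR, RSEM, Bowtie2, HOMER and FastQC 0.11.5; annotation version and strandedness are not given in the sources used here. Between 12.19% and 14.62% of the expected counts of a library, over all genes and with zeros included, were not whole, and all were rounded. Gene symbols and positions came from GENCODE M21; 105 of 53379 gene IDs had no match. The members and lists were chosen with earlier results of these data known.

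Rounded counts were fitted with edgeR 4.0.16 in R 4.3.3 (TMM scaling, filterByExpr, quasi-likelihood F test, Benjamini-Hochberg adjustment). All 10 libraries entered 1 fit with a term for each group, which leaves 5 residual degrees of freedom, and the common biological coefficient of variation was 0.248. Log2 differences and their SE come from that fit, and CPM from TMM-scaled totals. Library totals were 35733249 to 53672980. On simulated counts with 200 changed genes among 19470 in this comparison, the fit called 26% of 2-fold and 95% of 4-fold changes, none with the wrong sign, with 8 false calls. Counting intervals (95%, exact) and floors of 3 counts cover counting error only. Replicates differed by more than counting noise (chi-square per degree of freedom 23.6 in the double knockout and 102.6 in the Smad2 knockout), so no pair was counted as 1 sample, which does not tell separate cultures from repeat preparations of 1 culture.

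Alternatives were RLE factors, plain totals, a stricter or no filter on low counts, the compared groups alone, a block for replicate number or for the series of library names, an offset for transcript length and GC content, a test against a 1.5-fold change, DESeq2 1.42.0, limma 3.58.1 on log2(TPM + 1) and log2(TPM + 0.1) for genes with a mean of at least 1 TPM, and each library left out. Where a group keeps 1 library, that library is assumed to vary as the other groups do. Library names fall into 2 series; both double knockout libraries and Smad2 knockout replicate 1 are in the first, so the fit without Smad2 knockout replicate 2 compares within a series.

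Genes were named from a panel of 30, from the 15 largest rises and falls among called genes that do not overlap and reach a group mean of 5 CPM, and from each list described (up to 5 called members in each direction by adjusted p, with uncalled members that show the spread). Isg15, Bst2, Tgfbr1, Adnp, Gm20716 and the families in the closing section were named after their values had been seen. Some genes that these rules name are not reported here. Promoter sequences are from RefSeq GRCm38.p6.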

Additional observations from a re-analysis of the deposited data

Results flagged for a closer look

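The 2 contrasts in which Smad3 is lost, the double knockout against the Smad2 knockout and the Smad3 knockout against WT, share no library, and the difference between their log2 differences was tested in the same edgeR fit across all genes. Only genes that passed that test are named here. Those among the largest changes were picked by the double knockout contrast, which is part of the difference tested. The choice therefore favours a pass for them, and their passing is no separate support. The adjusted p is given for each gene, and no explanation was weighed.

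Among the panel genes, Gata6 differed most clearly upward, by 3.21 (adjusted p = 0.00335; 2.48 in the double knockout against the Smad2 knockout, -0.73 in the Smad3 knockout against WT). Smad4 differed by 1.19 (0.0128; 1.19 and 0.01) and H19 by 1.69 (0.00911; 1.88 and 0.19), both called in the first contrast and not in the second (adjusted p = 0.992 and 0.689). Sox17 differed by 2.46 (0.0351; 1.22 and -1.24) and Foxa2 by 3.13 (0.0419; 0.51 and -2.62), and neither was called in the first contrast. Downward, Fgf5 differed by -2.76 (0.00243; -3.89 and -1.13), Pou5f1 by -1.96 (0.0166; -2.45 and -0.48), Lefty1 by -2.56 (0.0475; -5.30 and -2.74) and Cdx2 by -3.71 (0.0356; -3.32 and 0.39). Hand1 differed by -2.96 (0.00981; 0.40 and 3.36) and Igf2 by -1.45 (0.014; 0.75 and 2.20), and for both the larger log2 difference was in the Smad3 knockout against WT. Of these 11 genes 3 passed without double knockout replicate 1 and 3 without its replicate 2, against 9 and 8 without Smad2 knockout replicate 1 or 2.

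Among the largest changes, Psmb8 differed by -7.20 (adjusted p = 0.000929; -6.97 in the double knockout against the Smad2 knockout, 0.23 in the Smad3 knockout against WT). Rpph1 differed by -6.67 (0.0311; -5.30 and 1.37). Syna differed by 4.53 (0.0059; 5.5 and 0.97), Pappa2 by 6.96 (0.0059; 8.35 and 1.38) and Pcdh12 by 4.61 (0.0123; 5.60 and 0.99). Gm28036, which had no count in the Smad2 knockout, has a fitted difference of 14.7 (0.000929) that depends on the prior count. Of the Xlr genes, Xlr3b differed by 3.65 (0.0023; 5.47 and 1.82), Xlr4a by 3.53 (0.00845; 6.17 and 2.63), Xlr4b by 2.02 (0.0171; 5.84 and 3.82), Xlr4c by 4.06 (0.0119; 6.28 and 2.23), Xlr5a by 4.98 (0.0104; 7.29 and 2.31) and Xlr5b by 4.89 (0.000929; 7.21 and 2.32). Each Xlr value was positive in the Smad3 knockout against WT as well. Of these 12 genes 8 passed without double knockout replicate 1, 10 without its replicate 2, 12 without Smad2 knockout replicate 1 and 11 without its replicate 2.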

How the results depend on the processing

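The number of genes called in the double knockout against the Smad2 knockout stayed within 1.5 times of 7715 under RLE factors (7686), plain totals (7745), no filter (8545), the stricter filter (7173), the compared groups alone (8117), the series block (7938), the length and GC offset (7104), DESeq2 (7748) and TPM (7728 and 7481 with pseudocounts of 1 and 0.1). It was 3942 against a 1.5-fold change and 3693 to 6270 with 1 library left out, lowest without double knockout replicate 2 and replicate 1 (3733). The difference of differences called 3673 genes, 1389 against a 1.5-fold change, and 786 to 3505 with 1 library left out (786 and 870 without double knockout replicate 2 or 1, 2006 without Smad2 knockout replicate 1); the cause was not tested beyond the smaller number of samples. Its number was 5494 and 4700 with TPM and DESeq2. Of 108 genes named with a test, 91 were called; of these 19 and 22 lost the call without double knockout replicate 1 or 2, 8 and 4 without Smad2 knockout replicate 1 or 2, 5 with the offset and 15 on log2(TPM + 1), and 3 changed sign there.

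Same-numbered libraries correlated in their deviations by 0.113 to 0.51 in the 6 pairs of groups without the double knockout and by -0.18 to -0.0354 in the 4 pairs with it (-0.126 with the Smad2 knockout). The numbers were therefore not taken as pairs here. Both double knockout libraries are in the first series of library names, so their numbers do not follow the series as those of the other groups do. Whether the double knockout numbers are crossed was not tested. With the replicate number as a block 7872 genes were called, and 3775 for the difference of differences; with the double knockout numbers crossed, a fit added after the data were seen, 8569 and 4732.

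Values that changed sign were the following log2 differences. TPM + 1, TPM + 0.1 and plain totals shift the median of all genes to 0.65, 0.76 and 0.28. Of the genes whose value itself changed sign, 4 of 12 (B2m, Krt8, Otx2 and Smad7), 3 of 12 (without Krt8) and 0 of 6 also did so relative to that median. Other genes changed sign only relative to the median. Itgav went from 1.18 to -0.43 with TPM + 1 and -0.51 with TPM + 0.1, and Igf2 from 0.77 to -0.12 and -0.23. Afp went from 0.105 to -0.073 with TPM + 1. The values of Cer1 rest on at most 2 counts a library and are not read as a direction. With TPM + 1 and TPM + 0.1 they were 0.45 and 0.46 for Dnmt3b, 0.17 and 0.17 for Tdgf1, 0.0481 and 0.0488 for Tgif1, 0.35 and 0.35 for Nanog, 0.28 and 0.28 for Sox2, 0.62 and 0.68 for Tap1, 0.89 and 0.91 for Otx2, 1.22 and 1.34 for Smad7, 0.61 and 0.69 for Smad3, 0.71 and 0.71 for Krt8, 0.79 and 0.80 for B2m and 0.0143 and 0.132 for Cer1. With plain totals they were 0.11 for Otx2, 0.10 for Smad7, 0.0945 for Smad3, 0.076 for Krt8, 0.15 for B2m and 0.19 for Cer1. With the offset they were -0.88 for Skil, -0.34 for Gm20716, 0.30 for Krt8, 0.55 for B2m and 0.12 for Cer1. With 1 library left out the values ran from -0.405 to 1.99 for Foxa2, -0.851 to 0.65 for Afp (-0.0689 with the series block), -0.558 to 0.446 for B2m, -0.498 to 0.13 for Krt8, -0.464 to 0.135 for Smad7, -0.426 to 0.0552 for Otx2 and up to 3.04 for Cer1. Of the genes whose value itself changed sign, only Dnmt3b, Tdgf1 and Tgif1 were called in the comparison. Itgav and Igf2, which changed sign only relative to the median, were called too.

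With 2 libraries a group, the fit called 26% of 2-fold changes in counts simulated with 200 changed genes. With 7715 genes called, the adjusted threshold is less strict than in that simulation, so the share does not carry over to these data. Genes under about 1 CPM rest on few counts.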

Other observations

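Several placental gene families, picked after their values had been seen, lay higher in the double knockout, and their counts are given as a description. Members with few counts elsewhere can pass the filter on low counts only through the double knockout. The lack of lower calls among them is therefore no support. Of 8 tested genes of the placental prolactin family, hormones of trophoblast giant cells, 6 were called higher and 0 lower, with 3 higher without double knockout replicate 2. Their summed level was 14.4 and 37.5 CPM in the double knockout, against 3.28 and 0.512 CPM in the Smad2 knockout and 0.0229 and 0 CPM in WT. Prl3d1, which encodes placental lactogen, had 3.51 and 5.98 CPM in the double knockout, against 0.106 and 0 CPM in the Smad2 knockout and 0 and 0 CPM in WT (log2 difference 6.53, SE 0.94, adjusted p = 0.00332; adjusted p = 0.262 with DESeq2). Of 7 Serpinb9 genes, a cluster of serine protease inhibitors, 6 were called higher and 0 lower, and the sum was 181 and 195 CPM in the double knockout, against 20.6 and 9.86 CPM in the Smad2 knockout. Serpinb9b had 61.4 and 64.9 CPM in the double knockout, against 8 and 5.53 CPM in the Smad2 knockout and 2.42 and 2.47 CPM in WT (log2 difference 3.22, SE 0.23, adjusted p = 0.000136). Of 4 tested placental cathepsins 3 were called higher; Ctsj had 5.81 and 9.97 CPM in the double knockout, against 0.768 and 0.171 CPM in the Smad2 knockout (log2 difference 4.09, SE 0.71, adjusted p = 0.00457). Of 3 tested pregnancy-specific glycoproteins 2 were called higher, and 1 without double knockout replicate 1; Psg29 had 2.72 and 2.6 CPM in the double knockout, against 0.132 and 0 CPM in the Smad2 knockout (log2 difference 5.38, SE 0.93, adjusted p = 0.00333). Of 14 tested Rhox genes, X-linked homeobox genes of reproductive tissues, 7 were called higher and 0 lower, with 4 higher without double knockout replicate 1, and 2 higher and 1 lower without its replicate 2; Rhox9 had 132 and 178 CPM in the double knockout, against 71.1 and 39.8 CPM in the Smad2 knockout and 0.846 and 1.17 CPM in WT (log2 difference 1.48, SE 0.31, adjusted p = 0.00593). The call of Rhox9 was lost without double knockout replicate 2 (adjusted p = 0.0525).

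Histone genes, most of whose RNAs lack a poly(A) tail, lay lower on balance, and 3 small structural RNAs, picked after their values had been seen, are given as single genes. Of 60 tested genes of the histone clusters 29 were called lower and 0 higher (median -2.39), against 12 and 5 lower without double knockout replicate 1 or 2, 27 and 9 without Smad2 knockout replicate 1 or 2, and 13 with the length and GC offset. Rn7s2, a signal recognition particle RNA, had 1.85 and 1.53 CPM in the double knockout, against 28.8 and 84.5 CPM in the Smad2 knockout and 0.96 and 1.57 CPM in WT (log2 difference -5.06, SE 0.65, adjusted p = 0.000861). Rmrp, the RNA of RNase MRP, had 0.145 and 0.325 CPM in the double knockout, against 2.44 and 12.8 CPM in the Smad2 knockout and 0.0686 and 0.523 CPM in WT (log2 difference -5.02, SE 1.18, adjusted p = 0.00959). Rpph1, the RNA of RNase P, had 0.374 and 0.209 CPM in the double knockout, against 3.47 and 19.8 CPM in the Smad2 knockout and 0.0229 and 0.903 CPM in WT (log2 difference -5.30, SE 1.31, adjusted p = 0.0122). In these 3 RNAs Smad2 knockout replicate 2 was the highest of the 4 knockout libraries. The call of Rmrp was lost without double knockout replicate 1 (adjusted p = 0.0809) or 2 (0.0562) and without Smad2 knockout replicate 2 (0.0556). The call of Rpph1 was lost without double knockout replicate 1 (adjusted p = 0.0736) or 2 (0.094) and without Smad2 knockout replicate 2 (0.0701). The labels do not describe whether polyadenylated RNA was selected, and its part in these values was not tested.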
